A study of Mus musculus with 6 samples.

Results

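The 10 genes described here encode AP-1 and immediate early transcription factors: the Fos family (*Fos*, *Fosb*, *Fosl1* and *Fosl2*), the Jun family (*Jun*, *Junb* and *Jund*), *Atf3*, and the zinc finger genes *Egr1* and *Egr2*. They were chosen by gene symbol, and all 10 were found among the 23282 rows of each count file. Liver sinusoidal endothelial cells (LSECs), which form the fenestrated wall of the liver capillaries, were compared between *Txnip*-/- mice (3 libraries) and WT mice (3 libraries). The *Txnip*-/- mice are a whole-body knockout on a C57BL/6J background, and C57BL/6J mice were the WT controls. LSECs were taken from the liver by collagenase perfusion, a density gradient and anti-CD146 magnetic beads, and the study's methods go on to culture in endothelial growth medium. They do not say whether the sequenced RNA was taken before or after culture, and they name no treatment or mouse age for these libraries. The libraries of a genotype are numbered, but nothing says that each number is a separate mouse, so the p-values measure the spread between these libraries, which may be technical.

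AP-1 is a dimer of basic leucine zipper proteins. Fos proteins cannot pair with one another and bind DNA with a Jun partner, whereas Jun proteins can also pair among themselves. *Fos*, *Fosb*, *Jun*, *Junb*, *Atf3*, *Egr1* and *Egr2* are classical immediate early genes, transcribed within minutes of a stimulus through serum response factor, CREB and the MAP kinases, and most of their mRNAs decay quickly. *Fosl1* and *Fosl2*, which encode Fra-1 and Fra-2, lack the strong activation domain of c-Fos and usually rise later, and *Jund* is expressed broadly in resting cells. In endothelium these factors respond to flow, cytokines and stress kinases such as JNK, and cell isolation with warm enzyme is itself known to induce them.

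Rapid decay of immediate early mRNAs depends on AU-rich elements in the 3′ UTR, whose core is the pentamer ATTTA. All 10 genes had at least 1 ATTTA in the 3′ UTR of their main transcript (GENCODE M21, GRCm38), and 9 of 10 had more per kilobase than 1.32, the median of the 10629 tested genes with a 3′ UTR. Those tested genes had a median of 1 ATTTA per 3′ UTR, and *Fosb*, *Fosl1* and *Jund* also held 1 each. *Fos* had the highest density, 4.91 per kilobase in a 3′ UTR of 815 bases, and *Fosb* the lowest, 0.47 per kilobase in 2145 bases. The longer core TTATTTATT was in the 3′ UTR of *Fos* and *Fosl2* and in 7.6% of the tested genes. Both sites are shown because no other member held this nonamer, which is in capitals, and they span bases 645 to 674 of the *Fos* 3′ UTR and 3682 to 3711 of the *Fosl2* 3′ UTR.
Fos: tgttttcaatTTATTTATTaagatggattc
Fosl2: atttattttaTTATTTATTttaaatgttta

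RefSeq start-site windows (GRCm38.p6, 250 bases before to 50 bases after the start) were found for 8 of the 10 genes. Both strands were searched for an AP-1 site (TGACTCA), its variant TGACATCA, a CRE (TGACGTCA), its variant TTACGTCA, an EGR site (GCGTGGGCG) and the CArG box of serum response factor. Windows of 3 of the 8 genes held one of these, and the share of all windows with any of these motifs was not taken. TGACTCA, TGACGTCA and GCGTGGGCG, in 5.2%, 1.79% and 0.61% of all windows, were in none of the 8 genes. The matches are shown because AP-1, ATF and serum response factors are known regulators of immediate early genes, and capitals mark the match. The *Jun* match lies 45 to 38 bases before the start (chr4:95052234-95052293, minus strand), and TGACATCA was in 3.62% of all 32851 windows. The *Atf3* match lies 10 to 3 bases before one start (chr1:191183334-191183393, minus strand), and TTACGTCA was in 0.5% of windows. *Egr2* had a CArG box in 4 of its 5 windows, 2 distinct sites in all (chr10:67537468-67537527 and chr10:67537771-67537830, plus strand), and 1.63% of windows held one.
Jun: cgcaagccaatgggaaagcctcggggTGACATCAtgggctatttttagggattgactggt
Atf3: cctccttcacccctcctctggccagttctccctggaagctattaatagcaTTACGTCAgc
Egr2 upstream: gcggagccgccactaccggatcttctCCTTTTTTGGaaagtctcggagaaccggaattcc
Egr2 downstream: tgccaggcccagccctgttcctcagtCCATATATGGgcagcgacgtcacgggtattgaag

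A QuantSeq read comes from close to the poly(A) tail of its transcript, so counts stand for transcripts and levels of different genes can be set side by side without division by length. Library totals ran from 9147764 to 10193952 counts, at which 3 counts, taken as the limit that a count of 0 allows, equal 0.286 to 0.335 CPM (counts scaled to a common library size with TMM factors). *Txnip*, which encodes thioredoxin-interacting protein, was counted 269, 216 and 191 times in *Txnip*-/- replicates 1, 2 and 3 and 1901, 2019 and 1994 times in the WT replicates (log2 fold change -3.02, edgeR adjusted p = 6.94e-10), which matches the labels. WT replicates 1 and 2 stood apart in the share of ribosomal RNA precursor (*Rn45s*) counts, at 10% and 9.68%, whereas the other 4 libraries had 16.8% to 18.6%. The 14 LSEC markers were all present, and their summed level was 5346 to 5745 CPM in *Txnip*-/- and 6141 to 7888 CPM in WT LSECs. All 14 had a log2 fold change below 0, 8 at an unadjusted p under 0.05 and 3 called lower (edgeR). *Lyve1* was the largest part of the sum, with means of 1698 CPM in *Txnip*-/- and 2927 CPM in WT LSECs. Its genotypes overlapped (edgeR adjusted p = 0.088). Of 13 Kupffer cell and macrophage markers, 12 were tested, 11 were called lower and none was at 0. Their sum was 306 to 340 CPM in *Txnip*-/- and 742 to 777 CPM in WT libraries. Stellate cell markers summed to 55.5 to 69.1 CPM in *Txnip*-/- and 28.3 to 34.0 CPM in WT libraries. All 8 tested had a log2 fold change above 0, 3 at an unadjusted p under 0.05 and 2 called higher (edgeR). Hepatocyte markers summed to 44.1 to 55.6 and 41.2 to 47.3 CPM with none of the 7 tested called by edgeR (1 at an unadjusted p under 0.05), and lymphocyte and neutrophil markers stayed at or below 1.53 CPM, with 5 of 6 and 1 of the 3 found at 0. The part of these other cells in the values below was not tested, and in bulk libraries fewer cells of a type and less RNA per cell cannot be told apart.

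Across both genotypes the 10 genes fell into the same order of level. In WT LSECs *Jun* was highest, with a mean of 287 CPM, followed by *Fosl2* (249 CPM), *Jund* (192 CPM), *Fosl1* (92.6 CPM), *Junb* (87.9 CPM), *Egr1* (58.3 CPM), *Atf3* (51.4 CPM), *Fos* (12.5 CPM), *Fosb* (1.37 CPM) and *Egr2* (0.924 CPM). Neighbours in this order had overlapping ranges for *Fosl1* and *Junb* and for *Fosb* and *Egr2*, and in *Txnip*-/- LSECs for *Fosl2* and *Jund* as well. *Jun* stood above 95.5% of the 11583 genes tested in WT LSECs, whereas *Fos*, the best known member, stood above 35.4%.

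**Figure D1:**
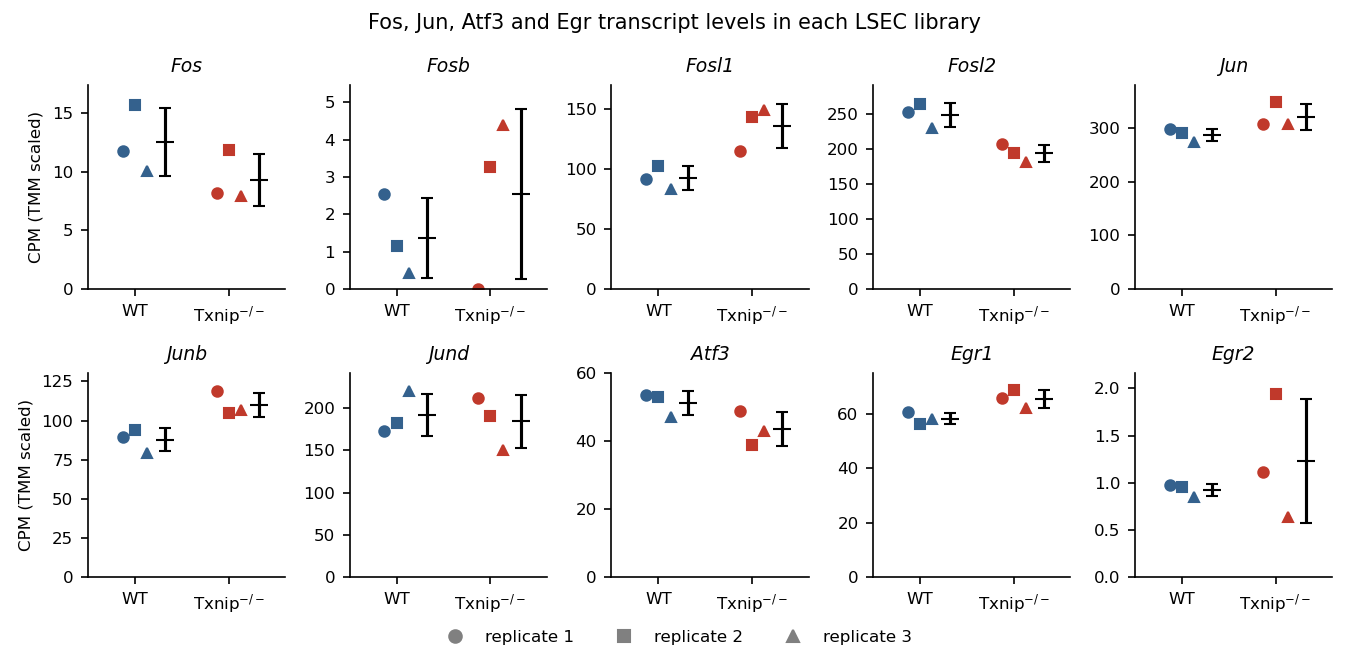
Levels of the 10 genes in each library, in CPM on linear axes from 0, with 1 panel per gene, WT libraries in blue, Txnip-/- libraries in red, marker shape for the replicate number, and the mean with its SD (n = 3) beside each group. Fosl1, Jun, Junb and Egr1 lie higher and Fosl2 lower in all Txnip-/- libraries than in any WT library, and Fosb runs from 0 to 4.38 CPM within the Txnip-/- libraries.

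Of the 10 genes, 9 passed edgeR's filter on low counts and were tested, and 1 of these 9 (11.1%), *Fosl1*, was called at an adjusted p under 0.05. Among all genes tested 1.55% were called, 0.570% as higher and 0.976% as lower in *Txnip*-/- LSECs. At an unadjusted p under 0.05 there were 3 of the 9 (33.3%), *Fosl1*, *Fosl2* and *Junb*, beside 11.5% of all genes. The genotypes did not overlap in CPM for 5 of the 9 (55.6%), 4 higher and 1 lower in *Txnip*-/- LSECs, beside 17.4% of all genes. The median log2 fold change of the 9 was 0.16, with 5 above and 4 below 0, and that of all genes was -2.75e-05. The genes did not move as a block: *Fosl1* rose, *Fosl2* was lower without passing the adjusted threshold, and *Jund* lay close to its WT level. Fold changes and adjusted p-values are from edgeR's quasi-likelihood test with Benjamini-Hochberg adjustment over all genes tested.

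**Figure D2:**
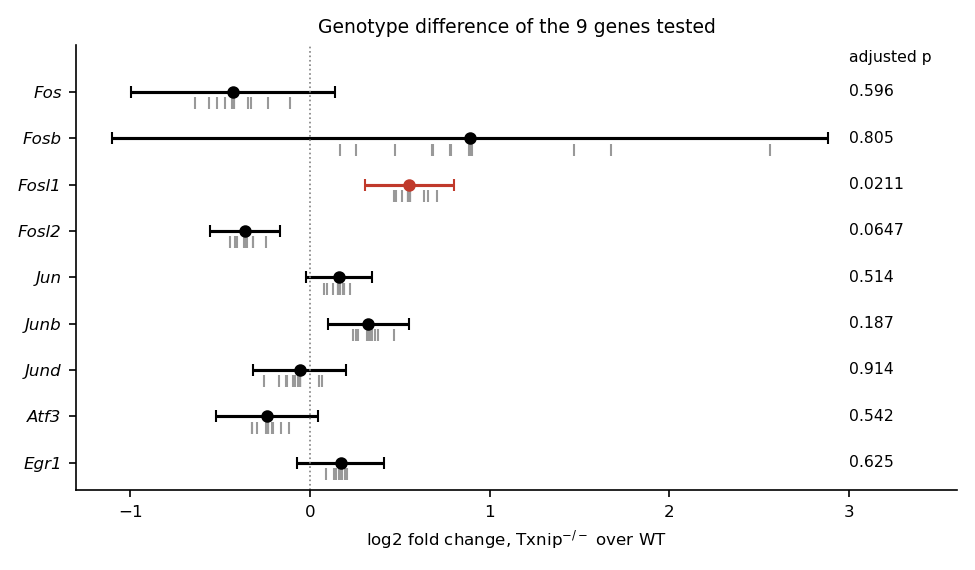
Log2 fold change of Txnip-/- over WT LSECs for the 9 genes tested by edgeR, with points for the estimate, bars for the 95% interval, grey ticks for the estimates under 16 other settings of the fit, and the adjusted p at the right (red where under 0.05). Fosl1 is the single gene in red at 0.55, the interval of Fosl2 lies below 0, that of Junb above 0, and the interval of Fosb spans -1.10 to 2.88.

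*Fosl1*, which encodes Fra-1, a Fos protein that accumulates under sustained MAP kinase signalling, lies on the plus strand of chromosome 19 from 5447547 to 5455946 in 4 exons. It had 1030, 1405 and 1396 counts in *Txnip*-/- replicates 1, 2 and 3 and 944, 1078 and 786 counts in WT replicates 1, 2 and 3. Scaled for library size, all 3 *Txnip*-/- libraries were above all WT libraries, with *Txnip*-/- replicate 1 the nearest to WT. The level was 136 ± 18.3 CPM in *Txnip*-/- and 92.6 ± 9.79 CPM in WT LSECs (SD, n = 3 each), a 1.47-fold increase (log2 fold change 0.55, SE 0.12, 95% interval 0.30 to 0.80, edgeR adjusted p = 0.0211). The call depended on single libraries, since leaving out *Txnip*-/- replicate 2 gave an adjusted p of 0.129, leaving out *Txnip*-/- replicate 3 gave 0.148, and leaving out WT replicate 1 gave 0.126 (edgeR). With a replicate block it was 0.0506 (edgeR).

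The counts of *Fosl1* and of a gene on the opposite strand may hold each other's reads. The whole last exon of *Fosl1*, 1055 bases from 5454892 to 5455946, is contained in an exon of *Ccdc85b*. This coiled-coil protein gene is read from the minus strand (5453180 to 5457894), and whether the authors counted reads by strand is not stated. *Ccdc85b* had 1140, 1600 and 1578 counts in *Txnip*-/- and 1143, 1319 and 947 counts in WT libraries (log2 fold change 0.45, SE 0.12, edgeR adjusted p = 0.0827). In every library this was more than the count of *Fosl1*, by 110, 195 and 182 in *Txnip*-/- and by 199, 241 and 161 in WT libraries. The annotated 3′ end of *Ccdc85b* is 2766 bases from that of *Fosl1* and 1712 bases outside the last *Fosl1* exon, so the 3′ ends themselves do not coincide. The shared stretch holds the 3′ end of *Fosl1* and not that of *Ccdc85b*. Without strand, reads from near the *Fosl1* poly(A) tail could therefore also be counted for *Ccdc85b*. Reads of both genes in the shared stretch could then not be told apart, and their part in the values of either gene was not tested.

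The ratio of *Fosl1* to *Ccdc85b* counts was 0.904, 0.878 and 0.885 in *Txnip*-/- and 0.826, 0.817 and 0.83 in WT libraries. It was higher in all *Txnip*-/- libraries, by 0.11 on the log2 scale (exact permutation test, two-sided, p = 0.1, the smallest that 3 against 3 libraries allow). If *Ccdc85b* counts hold *Fosl1* reads, this ratio rises whenever *Fosl1* rises and is not a separate result. Among all genes tested, the profiles most like that of *Fosl1* over the 6 libraries were those of *Pycrl*, *Ccdc85b* and *Ppp4c*. Their root mean square differences in centred log2 CPM were 0.0483, 0.0558 and 0.0659, beside 0.311 for the spread of *Fosl1* itself. Shared reads would by themselves make the *Ccdc85b* profile like that of *Fosl1*, and their part was not tested.

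**Figure D3:**
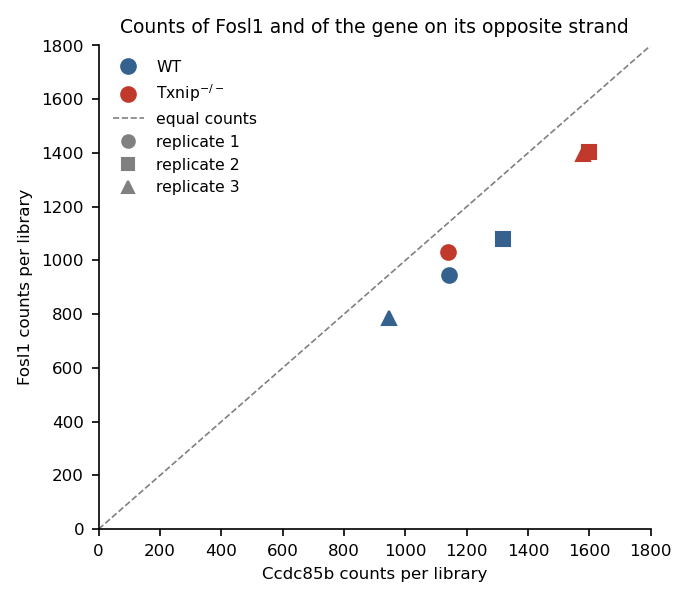
Deposited counts of Fosl1 (y axis) against those of Ccdc85b (x axis) in the 6 libraries, WT in blue and Txnip-/- in red, marker shape for the replicate number, with a dashed line at equal counts. All 6 points lie below the line and close to it, and the Txnip-/- points lie nearer to it, at ratios of 0.878 to 0.904 against 0.817 to 0.83 in WT. The counts on both axes may hold the same Fosl1 reads.

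*Fosl2*, which encodes Fra-2 and was the most abundant Fos family transcript, lies on the plus strand of chromosome 5 from 32135801 to 32157842. It had 1850, 1901 and 1702 counts in *Txnip*-/- replicates 1, 2 and 3 and 2603, 2768 and 2174 counts in WT replicates 1, 2 and 3. All *Txnip*-/- libraries were below all WT libraries. The level was 194 ± 12.3 CPM in *Txnip*-/- and 249 ± 17.3 CPM in WT LSECs (SD, n = 3 each), 1.28-fold lower (log2 fold change -0.36, SE 0.09, 95% interval -0.55 to -0.16, unadjusted p = 0.00117, edgeR adjusted p = 0.0647). The difference thus missed the adjusted threshold in the main test, and it passed in 4 of 16 other settings, among them DESeq2 (adjusted p = 0.0119) and edgeR without WT replicate 3 (adjusted p = 0.00782). No annotated exon of another gene overlapped its last exon.

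*Fos*, which encodes c-Fos, the prototype immediate early factor, lies on the plus strand of chromosome 12 from 85473890 to 85477273. It had 73, 116 and 74 counts in *Txnip*-/- replicates 1, 2 and 3 and 121, 165 and 95 counts in WT replicates 1, 2 and 3. Replicate 2 was the highest library of each genotype, and the genotypes overlapped. The level was 9.30 ± 2.19 CPM in *Txnip*-/- and 12.5 ± 2.91 CPM in WT LSECs (SD, n = 3 each), with a log2 fold change of -0.43 (SE 0.27, 95% interval -0.996 to 0.139, edgeR adjusted p = 0.596). The size of this difference moved with single libraries, to -0.23 without WT replicate 2 and -0.64 without *Txnip*-/- replicate 2. A term for WT replicates 1 and 2, which leaves WT replicate 3 alone on the WT side, gave -0.11. Between libraries of a genotype its CV was 23.6% and 23.2%, above the 10.7% and 8.87% that counting error alone gives at these depths. The profiles most like it were those of *Numb*, *Ap2a1* and *Mpc1*, at root mean square differences of 0.0848, 0.0879 and 0.09, beside 0.335 for *Fos* itself.

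*Fosb*, an activity-induced Fos gene on the minus strand of chromosome 7 (19302696 to 19310051), had 0, 32 and 41 counts in *Txnip*-/- replicates 1, 2 and 3 and 26, 12 and 4 counts in WT replicates 1, 2 and 3. No read was counted in *Txnip*-/- replicate 1, where the exact Poisson interval was 0 to 3.69 counts (95%, counting error only). The intervals of *Txnip*-/- replicates 2 and 3 were 21.9 to 45.2 and 29.4 to 55.6. Libraries of the same genotype thus differed by more than counting error, in WT as well (17.0 to 38.1 counts in replicate 1 and 1.09 to 10.2 in replicate 3). The level was 2.55 ± 2.28 CPM in *Txnip*-/- and 1.37 ± 1.07 CPM in WT LSECs (SD, n = 3 each), and the interval of the log2 fold change, -1.10 to 2.88, spanned 0 with this spread between libraries (edgeR adjusted p = 0.805). *Txnip*-/- replicate 1, without *Fosb* reads, had the lowest *Fosl1* and the highest *Junb*, *Fosl2*, *Jund* and *Atf3* levels of its genotype.

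**Figure D4:**
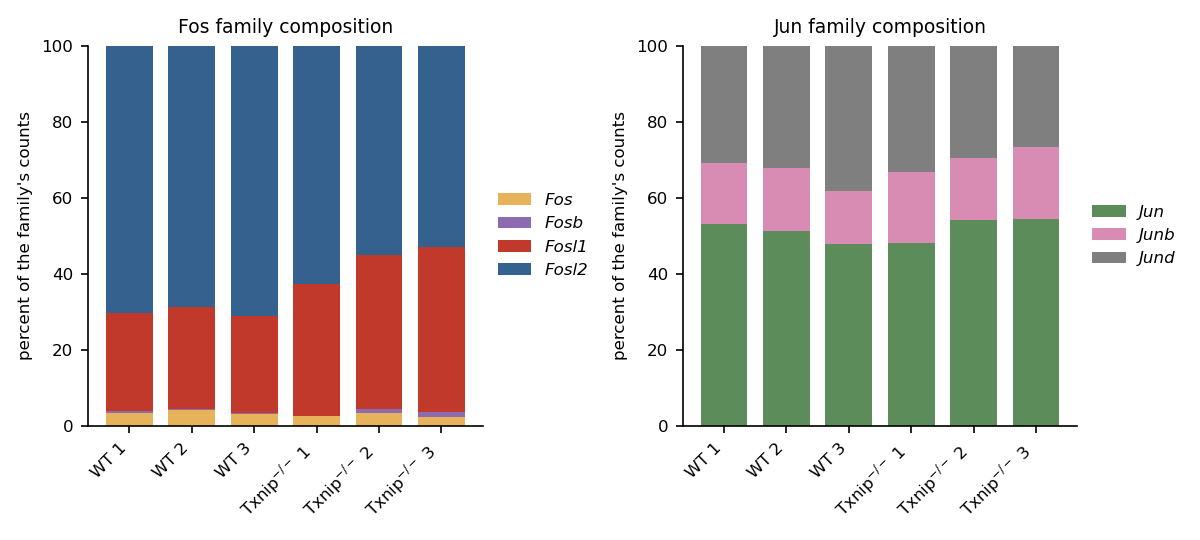
Share of each member in the summed counts of the Fos family (left) and the Jun family (right), in percent, as stacked bars for the 3 WT and the 3 Txnip-/- libraries. The Fosl1 share is 25.6% to 26.8% in WT and 34.9% to 43.4% in Txnip-/- libraries, the Fosl2 share is 68.8% to 71.1% in WT and 53.0% to 62.6% in Txnip-/- libraries, and the Jun family shares overlap between genotypes.

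Because Fos proteins compete for Jun partners, the make-up of each family was compared within libraries, where scaling has no part. *Fosl1* made up 34.9%, 40.7% and 43.4% of Fos family counts in *Txnip*-/- replicates 1, 2 and 3, beside 25.6%, 26.8% and 25.7% in WT replicates 1, 2 and 3. *Fosl2* made up 62.6%, 55.0% and 53.0% in the *Txnip*-/- replicates, beside 70.5%, 68.8% and 71.1% in the WT replicates. Neither share overlapped between genotypes: the mean *Fosl1* share was 13.7 percentage points higher (exact permutation test, two-sided, p = 0.1, the smallest possible here, 0.35 adjusted over the 7 shares of both families) and the mean *Fosl2* share differed by -13.2 percentage points (exact p = 0.1, adjusted 0.35). The ratio of *Fosl1* to *Fosl2* was 0.557, 0.739 and 0.82 in *Txnip*-/- and 0.363, 0.389 and 0.362 in WT libraries, a difference of 0.91 on the log2 scale (exact p = 0.1). *Fosl1* and *Fosl2* held nearly all Fos family counts in every library, so as one share rises the other falls. Their shares and their ratio are thus nearly the same contrast, and their p-values are not separate results. These values carry the same uncertainty over *Ccdc85b* reads, and the ratio was chosen because the opposite directions of both genes were already known.

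Summed over the family, the genotypes were not separated. The 4 Fos genes together gave 330, 352 and 344 CPM in *Txnip*-/- and 360, 383 and 324 CPM in WT libraries, which overlapped. Without *Fosl1* they gave 215, 209 and 194 CPM in *Txnip*-/- and 268, 281 and 240 CPM in WT libraries, which did not overlap. *Fos* itself was a small part throughout, with a mean of 2.71% in *Txnip*-/- and 3.49% in WT LSECs (exact permutation p = 0.3).

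*Jun*, which encodes c-Jun, the JNK substrate and main AP-1 partner, is a single exon on the minus strand of chromosome 4 (95049034 to 95052222). It had 2747, 3421 and 2869 counts in *Txnip*-/- replicates 1, 2 and 3 and 3050, 3040 and 2595 counts in WT replicates 1, 2 and 3. Scaled to CPM, the *Txnip*-/- libraries were all higher, but replicates 1 and 3 lay near the highest WT library. The level was 321 ± 24.2 CPM in *Txnip*-/- and 287 ± 11.4 CPM in WT LSECs (SD, n = 3 each), with a log2 fold change of 0.16 (SE 0.09, 95% interval -0.02 to 0.34, edgeR adjusted p = 0.514). The antisense gene *Junos* overlaps 232 bases of this exon and has no row in the count files.

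*Junb*, whose product is a weaker activator than c-Jun and often opposes it, has its main transcript as a single exon on the minus strand of chromosome 8 (84976910 to 84978718). It had 1065, 1028 and 1000 counts in *Txnip*-/- replicates 1, 2 and 3 and 923, 989 and 753 counts in WT replicates 1, 2 and 3. All *Txnip*-/- libraries were above all WT libraries. The level was 110 ± 7.62 CPM in *Txnip*-/- and 87.9 ± 7.47 CPM in WT LSECs (SD, n = 3 each), 1.25-fold higher (log2 fold change 0.33, SE 0.11, 95% interval 0.10 to 0.55, unadjusted p = 0.00723, edgeR adjusted p = 0.187). The difference did not pass the adjusted threshold under any of the 16 other settings. A noncoding *Junb* transcript overlaps 173 bases of *Prdx2*, a peroxiredoxin gene on the opposite strand, and the main transcript overlaps none. *Prdx2* had a log2 fold change of -0.04 (edgeR adjusted p = 0.939).

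*Jund*, the constitutive Jun gene, is a single exon on the plus strand of chromosome 8 (70698949 to 70700616). It had 1900, 1867 and 1409 counts in *Txnip*-/- replicates 1, 2 and 3 and 1780, 1912 and 2081 counts in WT replicates 1, 2 and 3. Replicate 3 was the lowest *Txnip*-/- library and the highest WT library, and the genotypes overlapped. The level was 184 ± 31.2 CPM in *Txnip*-/- and 192 ± 24.9 CPM in WT LSECs (SD, n = 3 each), with a 95% interval of the log2 fold change from -0.31 to 0.20 (edgeR adjusted p = 0.914). The antisense gene *Gm11175* overlaps 877 of its 1668 bases and has no row in the count files.

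The Jun family as a whole gave 638, 644 and 564 CPM in *Txnip*-/- and 560, 566 and 574 CPM in WT libraries. *Txnip*-/- replicates 1 and 2 were above the WT libraries, and replicate 3 lay among them. *Jun* made up a mean of 52.2% in *Txnip*-/- and 50.7% in WT LSECs (exact permutation p = 0.5) and *Jund* 29.8% and 33.8% (exact p = 0.3). *Junb* made up 18.6%, 16.3% and 18.9% in *Txnip*-/- and 16.0%, 16.6% and 13.9% in WT libraries, a mean difference of 2.44 percentage points (exact p = 0.2). None of these shares separated the genotypes.

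*Atf3*, a stress-induced bZIP factor that pairs with Jun proteins and often represses, lies on the minus strand of chromosome 1 (191170296 to 191218039). It had 437, 382 and 403 counts in *Txnip*-/- replicates 1, 2 and 3 and 551, 558 and 447 counts in WT replicates 1, 2 and 3. *Txnip*-/- replicate 1 and WT replicate 3 overlapped in CPM. The level was 43.6 ± 4.95 CPM in *Txnip*-/- and 51.4 ± 3.54 CPM in WT LSECs (SD, n = 3 each), with a log2 fold change of -0.24 (SE 0.13, 95% interval -0.52 to 0.05, edgeR adjusted p = 0.542).

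*Egr1*, the serum-inducible zinc finger factor of endothelial stress responses, lies on the plus strand of chromosome 18 (34859823 to 34864984) in 2 exons. It had 591, 674 and 581 counts in *Txnip*-/- replicates 1, 2 and 3 and 622, 592 and 548 counts in WT replicates 1, 2 and 3. In CPM the *Txnip*-/- libraries were all slightly higher. The level was 65.6 ± 3.31 CPM in *Txnip*-/- and 58.3 ± 2.10 CPM in WT LSECs (SD, n = 3 each), with a log2 fold change of 0.17 (SE 0.11, 95% interval -0.07 to 0.41, edgeR adjusted p = 0.625). Its spread between libraries of a genotype, a CV of 5.05% and 3.59% in *Txnip*-/- and WT LSECs, lay close to the counting error of 4.03% and 4.13%.

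*Egr2*, known for its part in myelination and in immune cells, lies on the plus strand of chromosome 10 (67535475 to 67542188). It had 10, 19 and 6 counts in *Txnip*-/- replicates 1, 2 and 3 and 10, 10 and 8 counts in WT replicates 1, 2 and 3. The WT libraries lay within the range of the *Txnip*-/- libraries. It did not pass the filter on low counts and was not tested in the main fit. In the 8 other settings that fitted it, its log2 fold change was 0.35 to 0.71, with adjusted p-values of 0.844 to 0.977 (edgeR or DESeq2).

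Genes around the 10 factors were read from lists of textbook pathway genes, with 139 genes tested. Over all genes tested, edgeR called 1.55% (0.570% higher and 0.976% lower), and 11.5% had an unadjusted p under 0.05. The counts below stand beside these shares, and no list was tested as a set. Among 55 other immediate early genes, 47 were tested, 3 were called higher and 1 lower, and the median log2 fold change was 0.08. *Phlda1*, a pro-apoptotic pleckstrin homology protein, had 586, 476 and 628 counts in *Txnip*-/- and 311, 340 and 189 counts in WT libraries and rose 2.19-fold (log2 fold change 1.13, SE 0.18, edgeR adjusted p = 0.00187). *Gadd45b*, a stress sensor upstream of p38 and JNK, had 150, 209 and 145 counts in *Txnip*-/- and 93, 82 and 67 counts in WT libraries and rose 2.23-fold (edgeR adjusted p = 0.0155). *Nfkbia*, which encodes the NF-kB inhibitor IkBa, rose 1.28-fold, from 1077 ± 78.0 to 1383 ± 72.1 CPM (edgeR adjusted p = 0.0212).

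*Ctgf*, a matricellular YAP target, was the listed immediate early gene called lower, from 5133 ± 427 CPM in WT to 3784 ± 223 CPM in *Txnip*-/- LSECs (1.36-fold lower, edgeR adjusted p = 0.0021). The neuronal and feedback genes *Npas4*, *Dusp5* and *Egr4* were at 0 in all 6 libraries, which allows up to 3 counts, or 0.286 to 0.335 CPM, per library. The calls of *Gadd45b* and *Nfkbia* were lost in several settings, *Gadd45b* without *Txnip*-/- replicate 1 or 2 or WT replicate 2 (adjusted p of 0.0514, 0.101 and 0.077) and *Nfkbia* without *Txnip*-/- replicate 1 or 3 or WT replicate 1 or 2 (0.162, 0.126, 0.147 and 0.127, all edgeR). A term for WT replicates 1 and 2, which stood apart in *Rn45s* share, leaves WT replicate 3 alone on the WT side. With it the log2 fold change was 1.33 for *Gadd45b* and 0.245 for *Nfkbia*, beside 1.16 and 0.36 in the main fit (edgeR).

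Of 24 other bZIP factors, which include possible partners of Fos and Jun proteins, 21 were tested, none was called higher and 2 were called lower by edgeR (3 higher and 2 lower at an unadjusted p under 0.05, and 1 called higher by DESeq2). The median log2 fold change was 0.05. *Maf*, which encodes the LSEC factor c-Maf, had 1033, 1129 and 1070 counts in *Txnip*-/- and 1791, 1798 and 1640 counts in WT libraries and fell 1.51-fold (edgeR adjusted p = 0.00129). *Maf* is also expressed in macrophages, whose markers summed to 306 to 340 CPM in *Txnip*-/- and 742 to 777 CPM in WT libraries, and the part of those cells in the fall was not tested.

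Of 44 upstream kinases and regulators, from the MAP3 kinases through JNK, p38 and ERK to the serum response factor and Egr co-repressors, 41 were tested. None was called by edgeR, DESeq2 or limma, beside 1.55% of all genes called by edgeR. At that share few calls fall in a list of 41 genes. At an unadjusted p under 0.05 there were 4 of the 41, beside 11.5% of all genes (edgeR). Their median log2 fold change was -0.03, with 17 above and 24 below 0. The smallest p-values belonged to *Map3k4*, a stress kinase activated by Gadd45 proteins, at 27.3 ± 2.85 CPM in *Txnip*-/- and 19.7 ± 0.91 CPM in WT LSECs (edgeR adjusted p = 0.265, log2 fold change 0.47, SE 0.17), and to *Nab1*, an Egr co-repressor, at 95.8 ± 11.0 and 78.4 ± 7.20 CPM (log2 fold change 0.29, edgeR adjusted p = 0.321). These are transcript levels and say nothing of kinase activity.

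Of 27 textbook AP-1 and Egr target genes, 19 were tested. By edgeR 4 were called higher and none lower, beside 0.570% and 0.976% of all genes tested. At an unadjusted p under 0.05 there were 7 higher and 1 lower, beside 11.5% of all genes in either direction. DESeq2 called 6 higher and limma 4, and neither called any lower. The median log2 fold change was 0.25, with 14 above and 5 below 0. *Ccl2*, a monocyte chemokine, had 12922, 14415 and 13386 counts in *Txnip*-/- and 7947, 8637 and 7028 counts in WT libraries and rose 1.86-fold (log2 fold change 0.89, SE 0.07, edgeR adjusted p = 1.01e-06). *Cd44*, the hyaluronan receptor, rose 1.79-fold (edgeR adjusted p = 0.0121) and *Ccnd1*, which encodes cyclin D1, rose 1.34-fold (edgeR adjusted p = 0.0395).

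The genotypes did not overlap in *Ccl2*, *Cd44* or *Ccnd1*. *Ccl2* was called in each of the 16 other settings. *Cd44* was lost without *Txnip*-/- replicate 1 or 3 (edgeR adjusted p of 0.0977 and 0.0579), and *Ccnd1* without any 1 library other than WT replicate 3 (0.077 to 0.203). Each target also answers to factors other than AP-1, and its link to any of the 10 genes was not tested.

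Of 13 heat shock and stress chaperone genes, read because tissue dissociation induces them along with *Fos* and *Jun*, all were tested and none was called by edgeR (2 at an unadjusted p under 0.05, and 1 called by DESeq2 and by limma). *Hspd1*, a mitochondrial chaperonin, was at 209 ± 11.2 CPM in *Txnip*-/- and 160 ± 14.7 CPM in WT LSECs (edgeR adjusted p = 0.0577, log2 fold change 0.38). *Hspa1a*, the stress-inducible HSP70 gene, was at 91.2 ± 10.1 and 112 ± 5.97 CPM (log2 fold change -0.30, edgeR adjusted p = 0.26). The list had a median log2 fold change of 0.05.

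**Figure D5:**
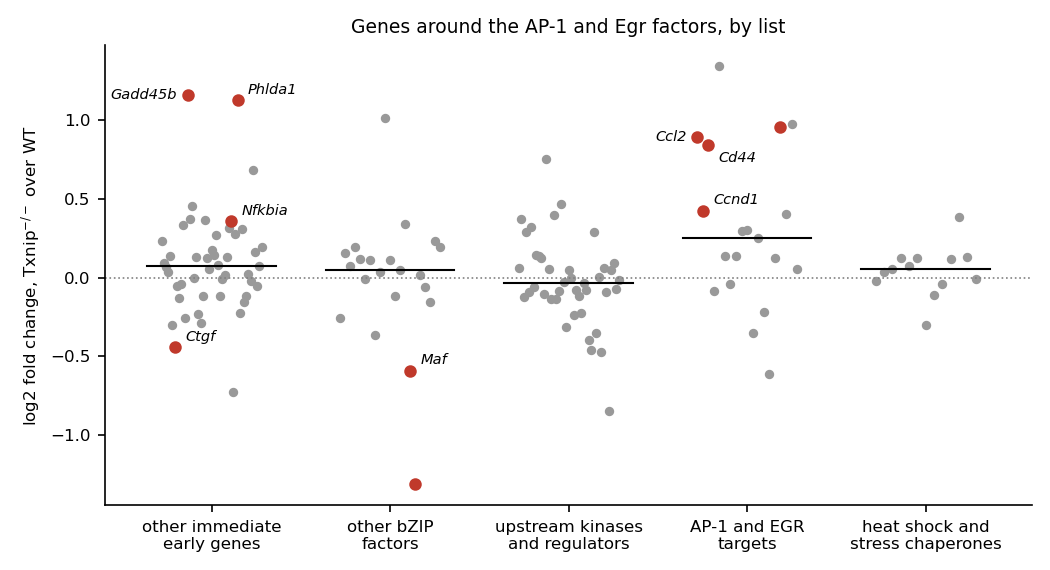
Log2 fold change of Txnip-/- over WT LSECs (y axis) for each tested gene of the 5 lists (x axis), with red points for genes called by edgeR at an adjusted p under 0.05 (named where the gene is described), grey points for the rest and a black line at each list's median. The target list has the highest median at 0.25 with 4 genes called higher, the upstream list has none called at a median of -0.03, and Maf is among the bZIP genes called lower.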

How the data were processed

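LSEC RNA was sequenced as single-end QuantSeq 3′ libraries, 3 from *Txnip*-/- and 3 from WT mice, and all 6 were used. The authors used Bowtie2 for alignment and Bedtools for counting, in which reads with more than a single alignment were kept, and the deposited values are whole-number counts that were not normalized. The submitters' processing notes name the build mm10, and versions, annotation and use of strand are not given in the sources used here. Reads of gene copies or overlapping antisense genes can therefore be counted for both.

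The 10 members, the gene lists and the alternatives were chosen with earlier results of these data known. In R 4.3.3, edgeR 4.0.16 was run on the counts. The filter filterByExpr kept 11583 of 23282 rows, TMM factors scaled the libraries, and the quasi-likelihood functions glmQLFit and glmQLFTest compared the genotypes without further terms, with p-values adjusted by Benjamini-Hochberg. A gene was called at an adjusted p under 0.05. DESeq2 1.42.0 and limma 3.58.1 were alternatives. The fit was tested on simulated data with planted log2 changes of 1 and 2 and a common composition of all libraries. Changes as small as those of the members were not covered by it. Ratios and shares were compared with exact permutation tests over libraries (scipy 1.17.1). The named genes were the 10 members, *Txnip*, genes overlapping a member's last exon, up to 4 called genes per list and direction (or the 2 with the smallest p; some called genes are counted in their list but not reported here), and the 3 profiles most like *Fosl1* and *Fos*. Positions are from GENCODE M21 on GRCm38, the assembly called mm10, and start-site windows from RefSeq. Around the genotype means, libraries that share a number had correlations of -0.030, 0.017 and -0.047, and the numbers were taken as names without pairing. WT replicates 1 and 2 were the closest pair (chi-square 3.93 for each degree of freedom), still further apart than sampling noise, and were counted as 2 libraries. WT replicate 3 lay at 37 and 40.2 from WT replicates 1 and 2. It was closer to *Txnip*-/- replicates 1, 2 and 3, at 13.3, 14 and 17.1. *Rn45s* was among the genes counted in these distances. It held 17.8% of counts in WT replicate 3, 16.8% to 18.6% in *Txnip*-/- libraries, and 10% and 9.68% in WT replicates 1 and 2. Its part in the distances was not tested. The WT libraries were thus not uniform, and the cause was not tested. No batch was labelled. Protein sequences were not used here.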

Additional observations from a re-analysis of the deposited data

How the results depend on the processing

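The direction of *Fos*, *Fosb*, *Fosl1*, *Fosl2*, *Jun*, *Junb*, *Atf3* and *Egr1* held in all 16 alternatives of the fit, and *Jund* ran from -0.17 to 0.0654 on the log2 scale with each library left out, reversed to 0.0654 without *Txnip*-/- replicate 3 and to 0.0521 without WT replicate 3. The count of the 10 genes called was 1 in the main test, 2 without a filter on low counts, 2 with DESeq2, and 0 to 2 with each library left out. *Fosl1* was called in 11 of 16, with a log2 fold change of 0.47 to 0.71, and without normalization factors its adjusted p was 0.095 (edgeR) while *Fosl2* was called instead. With a term for WT replicates 1 and 2, whose *Rn45s* share stood apart, *Fosl1* had a log2 fold change of 0.71 (adjusted p = 0.0188, edgeR) and *Fosl2* one of -0.25 (adjusted p = 0.297, edgeR). With the replicate block, 0 of the 10 genes were called, and of the listed genes called the calls of *Nfkbia* (adjusted p = 0.0757) and *Ccnd1* (0.105, both edgeR) were lost. The sources used here do not say whether the numbers pair the libraries. Listed genes called were 10 in the main test and 6 to 15 with each library left out, 6 without *Txnip*-/- replicate 1. The difference in the *Fosl1* to *Fosl2* log2 ratio was 0.79 to 1.07 with each library left out. With 3 libraries per genotype exact tests cannot go below 0.1. *Egr2* was too low for the main filter, and *Fosb* varied between libraries of a genotype by more than counting error. The causes of these changes were not tested.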
